A study of Mus musculus with 32 samples.

Results

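The genes described here encode 10 transcription factors known for building and maintaining heart muscle: Mef2a, Mef2c, Mef2d, Gata4, Gata6, Nkx2-5, Tbx5, Tbx20, Hand2 and Isl1. They were chosen by name, as the rows with these symbols in the deposited count tables of 2 mouse cell lines. The HL-1 table gave all 10 among its 55414 rows. The AML12 table gave 8 among its 27843 rows, and Tbx5 and Hand2 were not analysed in that line. Every AML12 row held a count, while 23808 of the HL-1 rows held none. Why Tbx5 and Hand2 have no AML12 row is not stated. After a filter on low counts, 6 of the 10 were among the 14450 genes tested in HL-1 cells (Mef2a, Mef2c, Mef2d, Gata4, Gata6 and Nkx2-5). The same genes without Mef2c, 5 in all, were among the 14114 genes tested in AML12 cells.

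The series addresses rhythmic communication between a liver and a heart cell line. It holds 32 RNA-seq libraries in 8 groups of 4. HL-1 cells were kept in medium from AML12 cultures that had received DEX synchronization (CM, for conditioned medium) or in AML12-derived control medium without it, and were sampled at 16 h and 28 h. AML12 cells were given DEX, as the labels abbreviate it, or a control treatment, and were sampled at 17 h and 25 h. HL-1 is an established line from an atrial tumour of a mouse with a transgene for a viral large T antigen, driven by the atrial natriuretic factor promoter. AML12 is an established hepatocyte line from a mouse with a transgene for human transforming growth factor alpha. Each is a single cell line, and all groups of a line carry the same transgene. Whether replicate libraries represent independent cultures is not stated, so the p-values below describe only the spread between these libraries, and that spread may be technical.

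Libraries held 15734197 to 19304043 counts in HL-1 and 15032450 to 17472840 in AML12. CM libraries tended to be deeper: at 16 h they held 17856221 to 19304043 counts and control libraries 15734197 to 17358552, and at 28 h CM libraries held 17513896 to 19176853 and control libraries 16028158 to 18104661. Pairs of libraries of 1 group were compared by the chi-square of their counts over genes, per degree of freedom, with 1 standing for sampling noise, and none was identical. Replicate 2 of DEX at 17 h stood apart, at 12.4 to 16.5 against its group, whose other 3 libraries differed by 2.27 to 3.73. The HL-1 control libraries at 16 h were also uneven, at 2.59 to 15.0. The cardiomyocyte label of HL-1 rests on few defining genes here. Of 11 cardiomyocyte markers, Myl7 and Sln had no count, and Myh6, Actc1, Nppa and Actn2 stayed at or below 0.168 CPM, the count scaled to library depth, in every library. Tnnt2 and Des were the 2 that passed 10 CPM, at 34.5 and 524 CPM on average. Of 10 fibroblast markers, 6 passed 10 CPM, with Vim at 6284 CPM and Col3a1 at 1455 CPM, while Tcf21 had no count, Thy1 and Lum stayed at or below 0.103 CPM and Postn averaged 5.54 CPM. In AML12 cells Vim was also at 2377 CPM on average, Tnnt2 at 55.1 CPM and Des at 2.43 CPM. Tnnt2 was thus not particular to HL-1.

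In the developing heart, GATA4, NKX2-5, TBX5 and the MEF2 factors bind together near genes for sarcomere proteins, ion channels and natriuretic peptides. GATA factors are zinc-finger proteins, NKX2-5 a homeodomain protein, TBX5 and TBX20 T-box proteins, HAND2 a helix-loop-helix protein and ISL1 a LIM-homeodomain protein of early heart progenitors. MEF2 proteins are MADS-box factors that are held inactive by class IIa histone deacetylases and released by kinases that respond to calcium and stress. GATA4 and GATA6 are also made in liver and other tissues of endodermal origin, and MEF2A and MEF2D are made in most cell types.

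Levels of different genes were compared per exon length, as counts per kilobase scaled to a common total per library (TPM). In HL-1 cells Mef2d was highest, at 70.3 ± 7.32 TPM over the 16 libraries (mean ± SD), followed by Mef2a at 33.8 ± 3.84 TPM and Gata4 at 16.6 ± 3.20 TPM. Nkx2-5 was at 6.10 ± 2.29 TPM, Mef2c at 2.53 ± 0.272 TPM and Gata6 at 0.413 ± 0.156 TPM. The ranges over the libraries of these 6 genes did not overlap between any neighbours in this order. Mef2d and Mef2a lay above 91.3% and 83.1% of the genes with a count in HL-1. The order of the first 2, and the gap between Nkx2-5 and Mef2c, depend on the length used. With the longest transcript instead of all annotated exons, Mef2a was at 68.2 TPM and Mef2d at 59.2 TPM, and their ranges overlapped. By that length Nkx2-5 (5.23 TPM, 2.77 to 9.75) and Mef2c (4.81 TPM, 4.13 to 5.89) overlapped too.

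AML12 cells had much the same factors. Mef2d was again highest, at 65.8 ± 7.11 TPM, and Gata4 (19.1 ± 1.52 TPM) and Mef2a (17.0 ± 1.36 TPM) overlapped in range. With the longest transcript Mef2a was at 35.0 TPM (29.0 to 38.2) and Gata4 at 17.0 TPM (15.0 to 20.0), without overlap. Nkx2-5, usually taken as a heart gene, was at 7.61 ± 1.18 TPM in the hepatocyte line, within the range it had in HL-1. Gata6 was at 3.65 ± 0.774 TPM, with no AML12 library as low as the highest HL-1 library. Mef2c had 3083 counts in the 16 HL-1 libraries and 2 counts, both in 1 library, in AML12. The lines were counted in separate tables, so these levels are set side by side without a test.

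**Figure D1:**
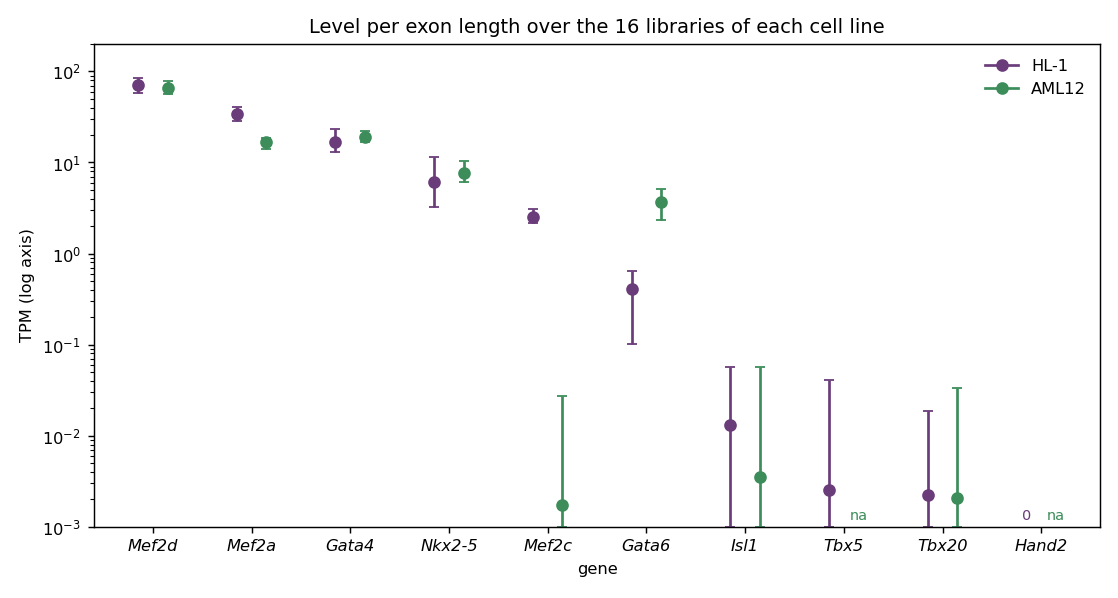
Mean level of each gene in TPM on a log axis, with bars from the lowest to the highest of 16 libraries, in HL-1 and AML12 cells; bars that reach the axis include libraries without a count, 0 marks a gene with no count and na one not analysed. The 6 tested genes span about 0.4 to 70 TPM in HL-1 cells, and the other 4 lie near or at 0.

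The T-box, HAND2 and ISL1 genes were at or next to zero. In HL-1 cells Hand2, which patterns the right ventricle and outflow tract, had 0 counts in 16 libraries, which allows a level of up to 0.0108 CPM. Tbx5, needed for the atria and the conduction system, had 1 count in all (0.00359 CPM, exact Poisson 95% interval 0.0000908 to 0.0200). Tbx20, a T-box partner of GATA4 and NKX2-5, had 2 counts, and Isl1 had 4 counts in 4 libraries, or 0.0143 CPM (0.00391 to 0.0367). In AML12 cells Tbx20 had 2 counts in 1 library and Isl1 1 count. Intervals cover counting error only, since reads are not independent molecules. No group of either line stood apart in these genes, and no fold change is given for them.

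Promoter sequences are shown for 2 expressed and 2 near-silent members, to set promoter letters beside the widest difference in level among the members. The RefSeq promoter table on GRCm38.p6 held 9 windows for 7 of the 10 members, each of 250 bases before and 50 bases after a transcript start. The 4 stretches below are the 200 bases before the start, read on the gene's strand, with each CpG in capitals. They lie at chr7:67372859-67373058 (minus strand) for Mef2a, chr3:88142172-88142371 (plus) for Mef2d, chr13:116309689-116309888 (minus) for Isl1 and chr9:24774304-24774503 (minus) for Tbx20.
Mef2a: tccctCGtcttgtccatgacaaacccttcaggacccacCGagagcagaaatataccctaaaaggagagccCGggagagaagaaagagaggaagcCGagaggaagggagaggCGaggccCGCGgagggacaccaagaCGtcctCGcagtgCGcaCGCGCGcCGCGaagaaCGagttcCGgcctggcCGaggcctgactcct
Mef2d: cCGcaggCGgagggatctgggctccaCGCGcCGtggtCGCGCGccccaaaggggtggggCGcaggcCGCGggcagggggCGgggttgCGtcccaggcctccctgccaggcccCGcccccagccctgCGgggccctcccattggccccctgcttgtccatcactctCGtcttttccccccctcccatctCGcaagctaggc
Isl1: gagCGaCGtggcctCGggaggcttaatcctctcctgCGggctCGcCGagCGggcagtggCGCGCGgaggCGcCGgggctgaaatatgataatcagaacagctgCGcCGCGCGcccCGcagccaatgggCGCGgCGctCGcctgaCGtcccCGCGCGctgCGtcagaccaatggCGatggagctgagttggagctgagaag
Tbx20: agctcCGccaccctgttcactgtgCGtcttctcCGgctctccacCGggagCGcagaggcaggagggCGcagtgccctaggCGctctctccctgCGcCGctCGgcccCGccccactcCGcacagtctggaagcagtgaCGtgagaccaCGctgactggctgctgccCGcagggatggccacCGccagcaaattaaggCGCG
The printed bases held 18 CpGs for Mef2a, 17 for Mef2d, 27 for Isl1 and 18 for Tbx20. Over the full 300 bases the expressed Mef2a and Mef2d had 27 and 24 CpGs, against 37 and 26 for the near-silent Isl1 and Tbx20, and 7 in the median of 32851 promoter windows. Isl1 had more than 94.4% of all windows. The unprinted windows held fewer, with 9 CpGs for Nkx2-5, 17 for Hand2, and 1, 10 and 4 for the 3 starts of Mef2c, so CpG number did not order the members by level. There were 4 short motifs searched on both strands, and no motif contains another. The E-box of clock factors (CACGTG, in 7.15% of all windows) and the D-box (TTATGTAA, in 0.938%) matched none of the 9 member windows. A GATA motif (AGATAA, in 11.2%) matched in the Hand2 and Isl1 windows and a MEF2-type motif (CTANNNNTAG, in 3.69%) in that of Mef2a. A match is a description of letters in these windows and no binding was measured.

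The first question was whether medium from DEX-synchronized hepatocytes changed these factors in HL-1 cells. No tested member was called as different between CM and control medium at either time. By edgeR's quasi-likelihood test with Benjamini-Hochberg adjustment over all genes, 0 of 6 were called at 16 h, where 2.03% of the genes tested were called (0.83% higher, 1.2% lower), and 0 of 6 at 28 h, where 1.92% were called (0.706% higher, 1.22% lower). The difference of the CM effect between the times called 0 of 6, against 0.277% of all genes (0.104% higher, 0.173% lower). At an unadjusted p under 0.05 the count was also 0 in all 3, and DESeq2 called 0. CM and control values of every tested member overlapped at both times, while 6.8% and 7.74% of all genes tested did not overlap at 16 h and 28 h. In bulk RNA, fewer cells making a transcript and less of it per cell cannot be told apart.

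**Figure D2:**
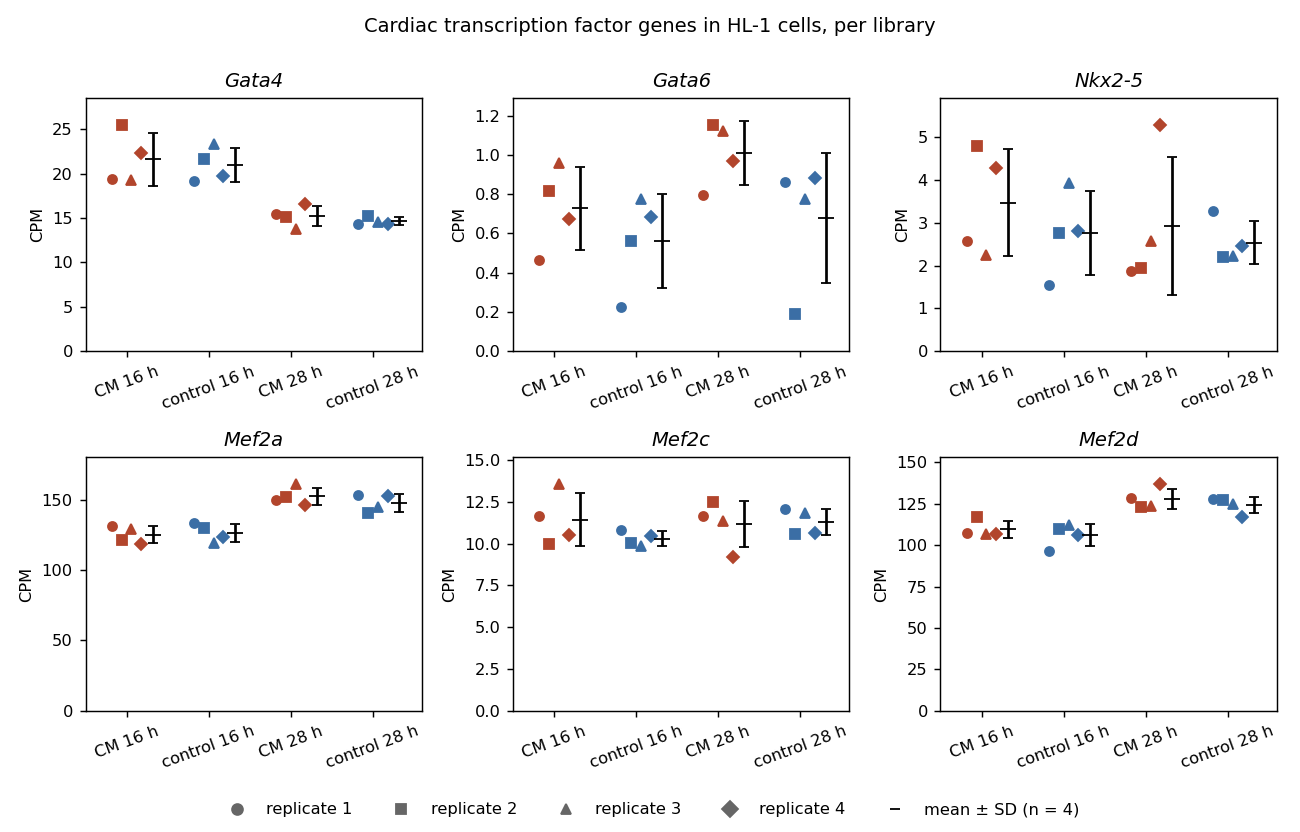
CPM of the 6 tested genes in each HL-1 library, by group, with the mean ± SD of 4 libraries beside the points; marker shapes are replicate numbers. CM and control points overlap at each time, and Mef2a, Mef2d and Gata4 separate 28 h from 16 h.

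Among the MEF2 genes, the estimates were tight for Mef2a and Mef2d and wider for Mef2c. Mef2a (chr7:67231163-67372858, minus strand, GRCm38) had 131, 121, 129 and 119 CPM in the 4 CM libraries at 16 h, against 133, 129.9, 119 and 123 CPM in control medium. At 28 h it had 149.8, 152, 161 and 146 CPM in CM and 154, 140.1, 145 and 152 CPM in control medium. The groups overlapped at both times, and at 28 h replicate 3 of CM was the highest library. The log2 fold change was -0.02 ± 0.04 (SE) at 16 h and 0.04 ± 0.04 at 28 h (adjusted p = 0.956 and 0.745). The 95% intervals ran from -7.24% to 5.45% at 16 h and from -3.22% to 9.82% at 28 h, so larger changes in Mef2a mRNA lie outside them.

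Mef2d (chr3:88142372-88172086, plus strand), the most abundant member per length of all annotated exons, showed the same. In CM it had 107, 117, 107 and 107 CPM at 16 h, against 96.6, 109.7, 112 and 106 CPM in control medium. At 28 h the CM libraries had 128, 123, 123 and 137 CPM and the control libraries 128, 127, 125 and 117 CPM. The highest library was replicate 2 of CM at 16 h and replicate 4 of CM at 28 h, and the groups overlapped. The fold changes were 0.05 ± 0.05 and 0.04 ± 0.05 on the log2 scale, with 95% intervals of -3.62% to 10.6% and -3.81% to 10.2% (adjusted p = 0.830 and 0.778).

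Mef2c (chr13:83504034-83667080, plus strand), the MEF2 gene needed for looping of the heart tube, was the low member of the family. It had 11.7, 9.97, 13.5 and 10.5 CPM in CM at 16 h and 10.8, 10.0, 9.87 and 10.5 CPM in control medium. At 28 h it had 11.6, 12.5, 11.3 and 9.22 CPM in CM, against 12.1, 10.6, 11.8 and 10.6 CPM in control medium. The CM libraries spread more widely than the controls at both times, and the groups overlapped. Its log2 fold change was 0.15 ± 0.10 at 16 h (-4.09% to 28.4%) and -0.02 ± 0.10 at 28 h (-14.4% to 14.2%), with adjusted p of 0.673 and 0.968.

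Gata4 (chr14:63198922-63271692, minus strand), an early activator of heart and liver genes, had 19.4, 25.5, 19.2 and 22.3 CPM in CM at 16 h, against 19.2, 21.6, 23.4 and 19.7 CPM in control medium. At 28 h it had 15.4, 15.1, 13.7 and 16.6 CPM in CM and 14.3, 15.3, 14.6 and 14.4 CPM in control medium. Within each time the groups lay on top of each other, and both 28 h groups were below both 16 h groups. The CM effect was 0.04 ± 0.09 at 16 h and 0.06 ± 0.09 at 28 h on the log2 scale, with intervals of -8.77% to 16.4% and -8.86% to 18.6% (adjusted p = 0.935 and 0.863).

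Gata6, the paralog that overlaps with Gata4 in heart formation, was close to the limit of counting, with 209 counts in the 16 HL-1 libraries. The 4 CM libraries at 28 h held 14, 22, 20 and 18 counts, against 14, 3, 14 and 14 in control medium. At 16 h the CM libraries held 9, 15, 18 and 12 counts and the controls 4, 9, 12 and 11. The highest single values were in CM at both times, and the groups overlapped. At 28 h the fold was 1.48 (95% interval 0.906 to 2.43, adjusted p = 0.521), and at 16 h it was 1.31 (0.758 to 2.25, adjusted p = 0.816). Both intervals include no change as well as a 2-fold difference.

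Nkx2-5 (chr17:26838664-26845009, minus strand), the homeodomain factor of the cardiac lineage, varied beyond counting error within groups. The chi-square of its counts, again per degree of freedom, was 8.46 in CM and 5.85 in control medium at 16 h, and 16.3 in CM and 1.63 in control medium at 28 h. In CM it had 2.58, 4.79, 2.24 and 4.27 CPM at 16 h, against 1.54, 2.75, 3.94 and 2.81 CPM in control medium. At 28 h it had 1.88, 1.94, 2.58 and 5.29 CPM in CM and 3.26, 2.19, 2.22 and 2.46 CPM in control medium. Replicate 4 of CM at 28 h was more than 2 times as high as each of the other 3 CM libraries of that time. The fold changes were 1.26 (95% interval 0.826 to 1.94) at 16 h and 1.16 (0.745 to 1.80) at 28 h, with adjusted p of 0.780 and 0.843. The direction at 28 h rests on that library: the log2 fold change was 0.21 ± 0.31 with it and -0.25 ± 0.28 without it (adjusted p = 0.850; 0.644 to 0.958 over all alternatives).

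**Figure D3:**
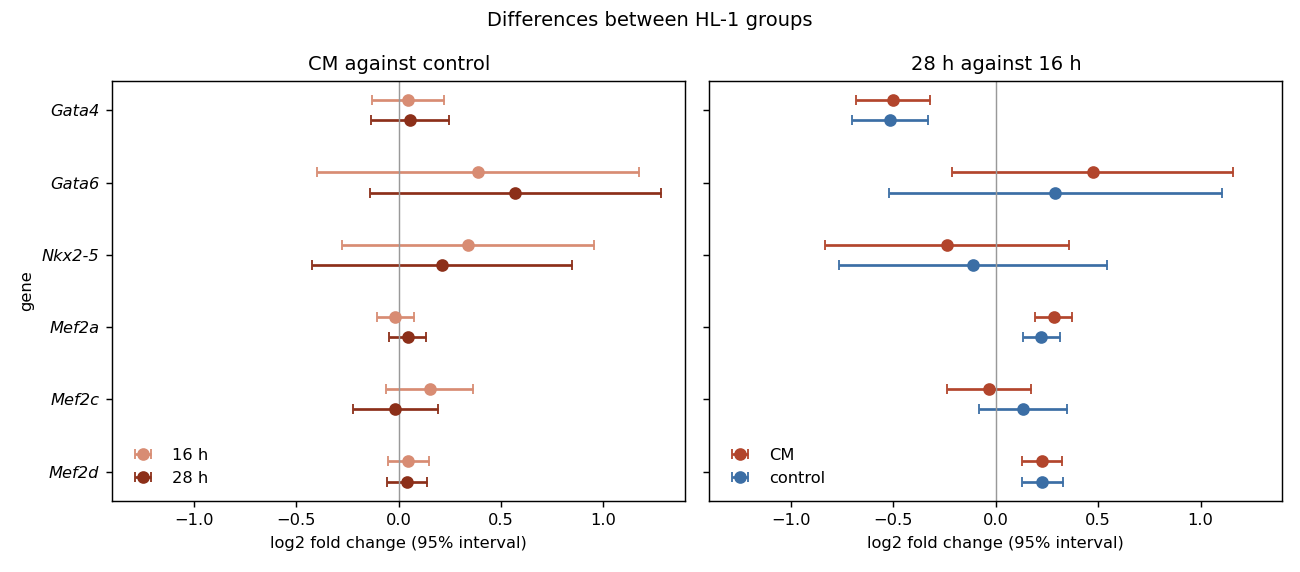
Log2 fold change with its 95% interval for each tested gene in HL-1 cells, for CM against control medium at 16 h and 28 h (left) and for 28 h against 16 h in CM and in control medium (right). All intervals on the left include 0, while on the right those of Gata4, Mef2a and Mef2d lie on 1 side of it in both media.

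The second question was how the factors differ between the 2 sampling times. In both media Mef2a and Mef2d were higher and Gata4 was lower at 28 h than at 16 h, and Mef2c, Gata6 and Nkx2-5 were not called. Thus 3 of 6 members were called in CM (2 higher, 1 lower), where 65.4% of all genes tested were called (32.6% higher, 32.9% lower). In control medium 3 of 6 were called (2 higher, 1 lower), where 62.8% of all genes were (31.5% higher, 31.3% lower). Values of the 3 called members did not overlap between the times in either medium, as was so for 58.2% of all genes in CM and 55.8% in control medium. The members' shares of calls were slightly under that background in both media, and 6 genes are too few to tell them from it. The CM and time contrasts share libraries, so they are not independent of each other.

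Mef2a averaged 152 ± 6.19 CPM at 28 h and 125 ± 6.02 CPM at 16 h in CM (SD, n = 4), a log2 fold change of 0.28 ± 0.04 with adjusted p = 4.10e-06 by edgeR. In control medium it averaged 148 ± 6.36 CPM at 28 h and 126 ± 6.22 CPM at 16 h (0.22 ± 0.04, adjusted p = 1.16e-04). All 4 Mef2a values at 28 h lay above all 4 at 16 h in each medium. Mef2d rose by a like amount, with 128 ± 6.32 CPM at 28 h and 109 ± 4.88 CPM at 16 h in CM (0.22 ± 0.05, adjusted p = 2.03e-04). Its values in control medium were 124 ± 5.06 CPM at 28 h and 106 ± 6.73 CPM at 16 h (0.23 ± 0.05, adjusted p = 2.08e-04). Again the 4 values at 28 h lay above the 4 at 16 h. Gata4 fell to 15.2 ± 1.16 CPM at 28 h in CM, against 21.6 ± 2.96 CPM at 16 h (-0.50 ± 0.09, adjusted p = 1.66e-05). In control medium it was 14.6 ± 0.434 CPM at 28 h and 21.0 ± 1.91 CPM at 16 h (-0.52 ± 0.09, adjusted p = 1.99e-05). These are changes of ordinary size for HL-1 cells: in CM, 42.2% of all genes tested moved less than Mef2a, 34.2% less than Mef2d and 65.1% less than Gata4.

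The remaining 3 members gave wider or smaller estimates with time. Mef2c was at -0.03 ± 0.10 in CM and 0.13 ± 0.10 in control medium on the log2 scale, with intervals of -15.3% to 12.6% and -5.47% to 27.1%. Gata6 was at 0.47 ± 0.33 and 0.29 ± 0.39, and Nkx2-5 at -0.24 ± 0.29 and -0.11 ± 0.32 (adjusted p = 0.218, 0.542, 0.483 and 0.780 by edgeR). Without replicate 4 of CM at 28 h, Nkx2-5 was called lower at 28 h in CM (-0.70 ± 0.27, adjusted p = 0.0260; 0.0260 to 0.935 over all alternatives). With 2 times and 2 media, time since the start of a rhythm and any other difference between the samplings cannot be told apart.

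Cell-type markers, those of cardiomyocytes included, also differed between the times. Of all genes tested, 32.6% were called higher and 32.9% lower at 28 h in CM. In control medium these shares were 31.5% and 31.3%. Of 7 fibroblast markers tested, 6 were called higher at 28 h than at 16 h in each medium. The median log2 fold change over that list was 0.67 in CM and 0.73 in control medium, against -0.0045 and 0.0010 over all genes tested. Summed over the 10 markers, CM libraries held 8879.9 to 9947 CPM at 28 h and 7767 to 8448 CPM at 16 h, and control libraries 9473 to 10005 CPM at 28 h and 7571 to 8845 CPM at 16 h, without overlap between the times. Of 3 epicardial markers tested, 2 were higher and 1 lower at 28 h in each medium, with the keratin gene Krt19 at 1.95 ± 0.05 in CM and 1.82 ± 0.05 in control medium on the log2 scale, and Aldh1a2 had no count in any library. Of 4 smooth muscle markers tested, 2 were higher and 1, Acta2, lower (-0.83 ± 0.06 in CM and -0.76 ± 0.06 in control medium). Of 4 cardiomyocyte markers tested, 2 were higher and 0 lower at 28 h in CM, and 2 were higher and 2 lower in control medium. The higher ones were Des (0.63 ± 0.06 in CM and 0.73 ± 0.06 in control medium) and Tnnt2 (0.26 ± 0.05 and 0.32 ± 0.06). The median over the tested cardiomyocyte markers was -0.09 in CM and -0.44 in control medium. The part of all these markers in the members' time differences was not tested.

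The library-to-library spread of several members moved with the base composition of the libraries. For each HL-1 library a GC tilt was taken as the median log2 deviation, from the group mean, of the 1441 tested genes richest in GC (at least 57.5% of exon bases) minus that of the 1441 poorest (at most 41.0%). It ran from -0.27 in replicate 1 of control medium at 16 h to 0.24 in replicate 4 of CM at 28 h. Replicate 3 of control medium at 16 h (0.20) and replicate 2 of CM at 16 h (0.20) were also high. Nkx2-5, whose exons are 67.1% GC, deviated by 0.96 on the log2 scale in the most tilted library and by -0.73 in the least, with the sign of the tilt in 14 of 16 libraries. Gata4 (57.4% GC) also had that sign in 14 of 16, and its highest library was the most tilted one in 4 of 4 groups. The AT-rich Mef2a (42.0% GC) and Mef2c (40.8% GC) had the sign of the tilt in 4 and 2 of 16 libraries. Nkx2-5 and Mef2d (55.0% GC) had their highest library in common in 4 of 4 groups, and Mef2d had the sign of the tilt in 12 of 16. Gata6 (55.3% GC), with few counts, had that sign in 7 of 16, and its highest library was the most tilted one in 1 of 4 groups. With the GC trend removed in each library, the SE of Nkx2-5 in the CM comparison at 16 h was 0.20 in place of 0.30, its log2 fold change was 0.25 at 16 h and 0.04 at 28 h, and no member was called for CM. In AML12 libraries, Mef2d had the sign of the tilt in 13 of 16, Gata4 in 9, Nkx2-5 in 8, Gata6 in 5 and Mef2a in 4.

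**Figure D4:**
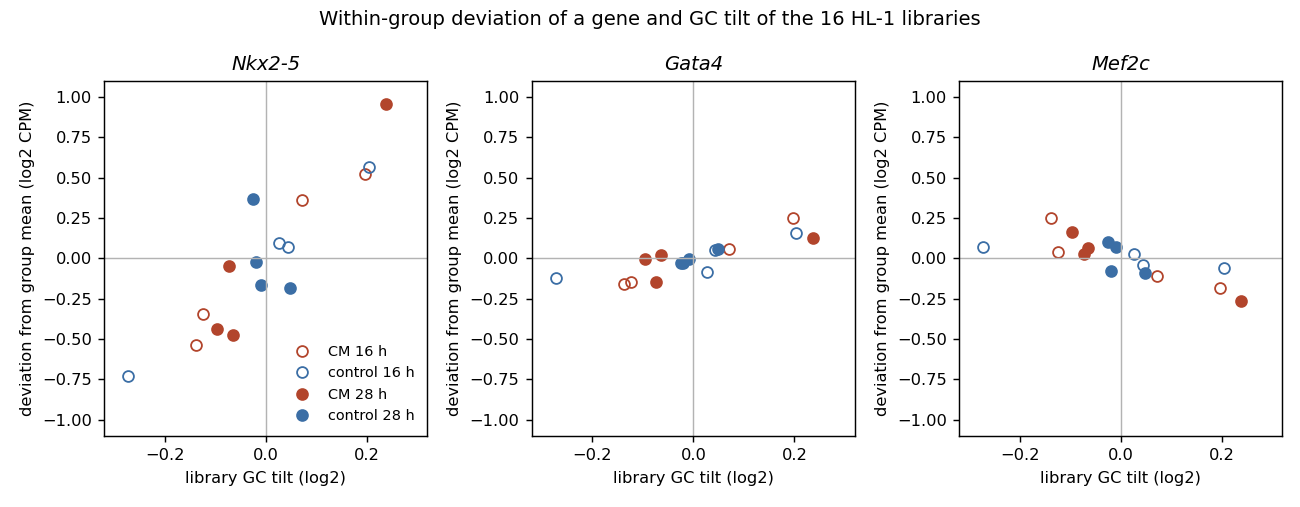
Deviation of Nkx2-5, Gata4 and Mef2c from their group mean (log2 CPM) against the GC tilt of the library (log2), for the 16 HL-1 libraries; colours are media and open and filled points are 16 h and 28 h. Nkx2-5 spans from -0.73 to 0.96 in the direction of the tilt, Gata4 follows it with a smaller span, and Mef2c runs the other way.

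Other genes of the cardiac programme put the members' result in context. Of 40 other cardiac transcription factors and cofactors, such as Srf, Tead1 and the Hey and Irx genes, 27 were tested in HL-1 cells and 18 exceeded 10 CPM on average. None was called for CM at 16 h or 28 h by edgeR or DESeq2. By edgeR 2.03% and 1.92% of all genes tested were called, and 0 of 27 is close to those shares. At each time 5 had an unadjusted p under 0.05, a level for which the share of all genes is not given here. The median log2 fold change of the list was 0.08 at 16 h and 0.02 at 28 h, with 0.00 and -0.01 over all genes tested. Between the times 15 of 27 were called in CM (9 higher, 6 lower) and 16 of 27 in control medium (9 higher, 7 lower), against 65.4% and 62.8% of all genes tested. Klf13, a partner of GATA4, was higher at 28 h, with 104 ± 3.41 CPM and 64.8 ± 1.98 CPM at 16 h in CM (0.69 ± 0.05, adjusted p = 4.03e-12).

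Genes that these factors are known to bind in heart muscle were mostly low in HL-1 cells: 25 of 35 averaged under 1 CPM, 15 were tested and 6 exceeded 10 CPM. For CM at 16 h 2 of 15 were called, 1 in each direction, where 0.83% of all genes were called higher and 1.2% lower. At 28 h 3 of 15 were called, 2 higher and 1 lower, against 0.706% and 1.22% of all genes. Tnnt2, cardiac troponin T, was higher in CM, at 38.6 ± 1.27 CPM against 23.7 ± 1.48 CPM in control medium at 16 h (0.70 ± 0.06, adjusted p = 1.32e-08 by edgeR). At 28 h it had 46.3 ± 1.41 CPM in CM and 29.6 ± 1.73 CPM in control medium (0.65 ± 0.06, adjusted p = 3.87e-08). Gja1, the gap junction protein connexin 43, was lower in CM, with log2 fold changes of -0.21 ± 0.03 at 16 h and -0.35 ± 0.03 at 28 h (adjusted p = 5.05e-04 and 2.55e-07). Ttn, the giant spring protein of the sarcomere, was higher in CM at 28 h, at 6.98 ± 0.900 CPM against 4.32 ± 0.307 CPM in control medium (0.69 ± 0.16, adjusted p = 0.0207). Other cell-type genes moved in the same comparisons. Acta2, smooth muscle actin, was at 512 ± 17.3 CPM in CM against 392 ± 9.76 CPM in control medium at 16 h (0.39 ± 0.06, adjusted p = 9.54e-05), and the fibroblast gene Dcn was at 10.9 ± 0.806 CPM in CM against 22.7 ± 0.331 CPM in control medium (-1.05 ± 0.06, adjusted p = 3.86e-11). Of 7 fibroblast markers tested, 1 was called higher and 2 lower in CM at each time. The lower ones were Dcn and the collagen gene Col3a1 (-0.28 ± 0.04 at 16 h and -0.28 ± 0.04 at 28 h, adjusted p = 2.15e-04 and 1.58e-04). The higher one was Postn at 16 h (0.72 ± 0.18, adjusted p = 0.0307) and Col1a2 at 28 h (0.21 ± 0.05, adjusted p = 0.0278). Summed over the 6 smooth muscle markers, among which Myh11 and Tagln stayed at or below 0.272 CPM, CM libraries held 564 to 612 CPM and controls 457 to 486 CPM at 16 h, and the sums of 10 fibroblast markers, with Tcf21 at 0 and Thy1 and Lum at or below 0.103 CPM, overlapped (7767 to 8448 CPM in CM and 7571 to 8845 CPM in control medium). Their part in the differences was not tested.

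The enzymes and partners that control MEF2 activity were nearly all present, with 27 of 30 above 10 CPM in HL-1 cells. For CM at 16 h 0 of 29 tested were called by edgeR or DESeq2, close to the 2.03% of all genes called by edgeR. An unadjusted p under 0.05 was found for 4, without a share of all genes to set beside it. At 28 h 2 of 29 were called, both lower, against 1.22% of all genes called lower. Rcan1, an inhibitor of calcineurin, was at 21.9 ± 1.03 CPM in CM against 32.0 ± 1.11 CPM in control medium (-0.55 ± 0.07, adjusted p = 1.60e-05), and Ppp3ca, the catalytic subunit of calcineurin, at 254 ± 1.73 CPM in CM against 279 ± 6.99 CPM in control medium (-0.14 ± 0.03, adjusted p = 0.0206). Between the times, 17 of 29 were called in CM (11 higher, 6 lower) and 17 in control medium (12 higher, 5 lower), where 65.4% and 62.8% of all genes were. Hdac5, a class IIa deacetylase that represses MEF2, rose to 146 ± 3.55 CPM at 28 h in control medium, against 81.0 ± 8.83 CPM at 16 h (0.85 ± 0.07, adjusted p = 3.24e-11). Map2k3, a kinase of the p38 pathway, fell to 87.6 ± 6.24 CPM at 28 h in CM, against 155 ± 7.55 CPM at 16 h (-0.82 ± 0.05, adjusted p = 1.11e-13).

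Signals that act upstream of the cardiac factors (BMP, TGF-beta, WNT, NOTCH, retinoic acid, endothelin and neuregulin genes) gave several calls for CM, all higher. At 16 h 4 of 26 tested were called and at 28 h 3, against the 0.83% and 0.706% of all genes called higher. Tgfb2, a TGF-beta ligand, had 26.0 ± 1.76 CPM in CM and 19.6 ± 1.86 CPM in control medium at 16 h (0.41 ± 0.08, adjusted p = 0.00254). Axin2, a WNT target that restrains the pathway, had 8.31 ± 0.684 CPM in CM and 5.97 ± 0.784 CPM in control medium (0.48 ± 0.11, adjusted p = 0.0211). Both were also higher at 28 h, by 0.36 ± 0.07 and 0.46 ± 0.10 on the log2 scale (adjusted p = 0.00442 and 0.0116). Id2 and Id3, BMP targets that block helix-loop-helix factors, were higher at 16 h (0.28 ± 0.06 and 0.42 ± 0.09, adjusted p = 0.00573 and 0.0110). Edn1, the endothelin ligand, was higher at 28 h at 2.69 ± 0.494 CPM in CM against 1.37 ± 0.224 CPM in control medium (0.98 ± 0.20, adjusted p = 0.00704). With time 21 of 26 were called in each medium (16 higher, 5 lower in both), against 65.4% of all genes in CM (32.6% higher) and 62.8% in control medium (31.5% higher). Bmp5, a BMP ligand, showed 10.8 ± 0.570 CPM at 28 h and 3.23 ± 0.458 CPM at 16 h in CM (1.74 ± 0.13, adjusted p = 5.73e-12).

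In AML12 cells, the source of the medium, the comparison of DEX with control asks how the synchronizing agent itself bears on the members. At 17 h 1 of 5 tested members, Mef2a, was called lower with DEX, where 38.4% of all genes tested were called (20.5% higher, 17.9% lower). Mef2a had 70.1, 80.2, 65.0 and 71.7 CPM in DEX cells and 82.0, 82.0, 81.2 and 77.4 CPM in control cells. DEX replicates 1, 3 and 4 were below all controls, and replicate 2 lay within the control range, while the groups did not overlap for 34.1% of all genes. The log2 fold change was -0.17 ± 0.06 (95% interval -18.5% to -2.92%, adjusted p = 0.0313 by edgeR). The call was lost without any 1 of 5 libraries: controls 1, 2 and 3 (adjusted p = 0.0532, 0.0700 and 0.0526) and DEX replicates 1 and 3 (0.0598 and 0.0969), with log2 fold changes of -0.17 to -0.13. Without DEX replicate 2 it was -0.23. Over its alternatives the adjusted p ran from 0.00134 to 0.0969.

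**Figure D5:**
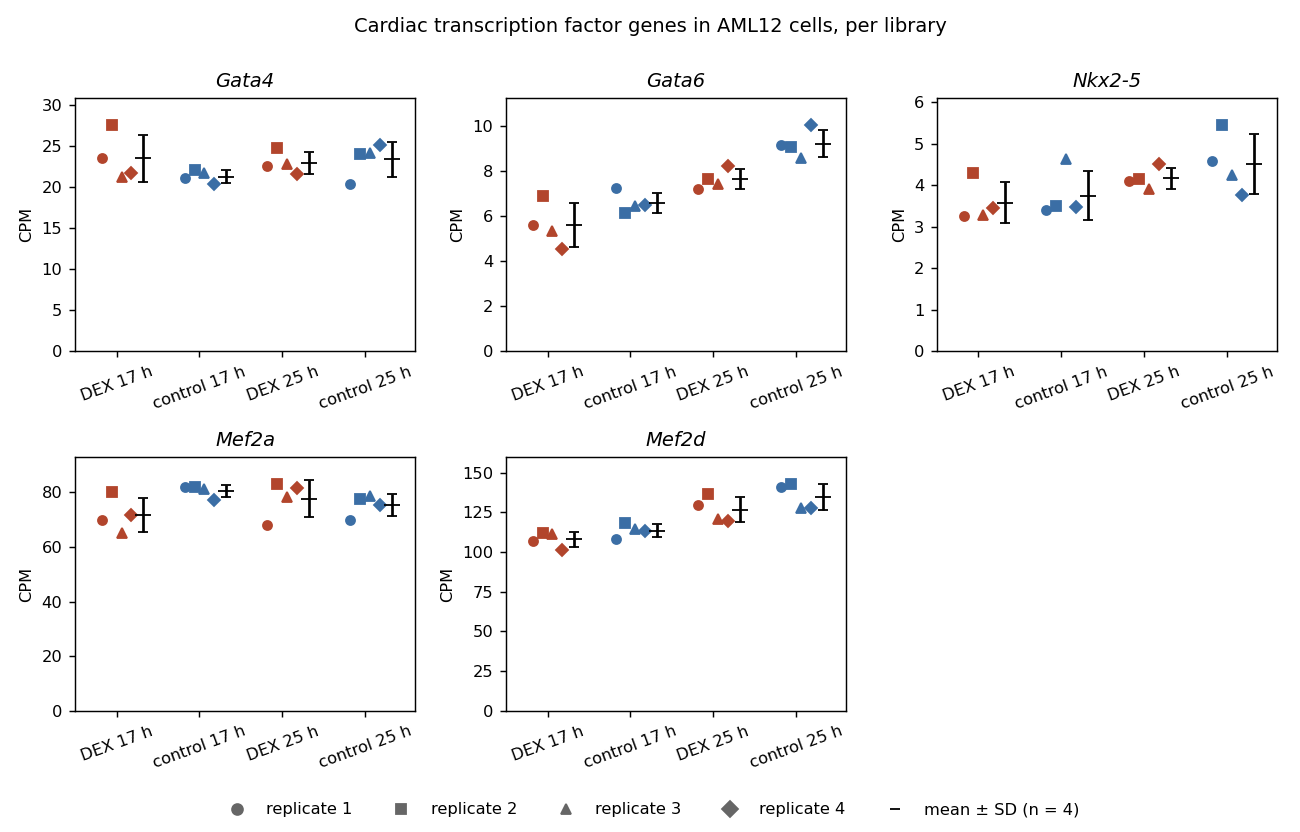
CPM of the 5 tested genes in each AML12 library, by group, with the mean ± SD of 4 libraries beside the points; marker shapes are replicate numbers. The Gata6 points with DEX at 25 h lie below those of control cells at 25 h, a difference that was not called, and Gata6 and Mef2d are higher at 25 h than at 17 h in both treatments.

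Gata6 had lower means with DEX at both times and was not called. At 25 h it had 7.22, 7.68, 7.45 and 8.24 CPM in DEX cells, against 9.16, 9.10, 8.61 and 10.1 CPM in control cells. At 17 h it had 5.62, 6.91, 5.37 and 4.57 CPM in DEX cells and 7.25, 6.17, 6.45 and 6.51 CPM in control cells. The groups did not overlap at 25 h, as was so for 18% of all genes, and overlapped at 17 h through DEX replicate 2. At 25 h 0 of 5 members were called by edgeR or DESeq2, where 11.7% of all genes were called (6.79% higher, 4.96% lower), and 1, Gata6, had an unadjusted p under 0.05. Its log2 fold change was -0.27 ± 0.10 at 25 h (adjusted p = 0.0835) and -0.23 ± 0.11 at 17 h (adjusted p = 0.103). Without DEX replicate 2 of 17 h it was called at both times (-0.35, adjusted p = 0.0129 at 17 h; -0.29, adjusted p = 0.0294 at 25 h). Without DEX replicate 4 of 17 h it was called at 25 h (-0.29, adjusted p = 0.0459). Over all alternatives the adjusted p of Gata6 ran from 0.0129 to 0.300 at 17 h and from 0.0294 to 0.190 at 25 h.

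In the test of the difference of the DEX effect between the times, 0 of 5 members were called by edgeR or DESeq2, against 16.2% of all genes (7.91% higher, 8.27% lower), and 1, Mef2a, had an unadjusted p under 0.05. For Mef2a the difference was 0.21 ± 0.09 (adjusted p = 0.105), and it was called without DEX replicate 2 of 17 h (0.26, adjusted p = 0.0149) or DEX replicate 1 of 25 h (0.26, adjusted p = 0.0234). At 25 h Mef2a had 68.0, 83.0, 78.3 and 81.6 CPM in DEX cells and 69.8, 77.7, 78.7 and 75.5 CPM in control cells, and these overlapped. Over all alternatives the adjusted p of the difference ran from 0.0149 to 0.229.

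The other 3 tested members overlapped between DEX and control cells at both times. Gata4 had 23.5, 27.6, 21.3 and 21.7 CPM in DEX cells at 17 h and 21.1, 22.1, 21.8 and 20.3 CPM in control cells, with a log2 fold change of 0.14 ± 0.08 (adjusted p = 0.160 by edgeR). At 25 h its difference was -0.03 ± 0.08 (adjusted p = 0.866). Nkx2-5 had 3.27, 4.31, 3.29 and 3.46 CPM with DEX and 3.40, 3.51, 4.63 and 3.49 CPM without at 17 h. The 4 libraries of a group lay closer together for Nkx2-5 than in HL-1 CM cells, and its DEX differences were -0.08 ± 0.14 at 17 h and -0.11 ± 0.13 at 25 h (adjusted p = 0.720 and 0.696). Mef2d had 107, 112, 111 and 102 CPM with DEX and 108, 118, 115 and 113 CPM without at 17 h, with differences of -0.07 ± 0.05 at 17 h and -0.09 ± 0.05 at 25 h (adjusted p = 0.278 and 0.300).

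Between the times in AML12, Mef2d and Gata6 were higher at 25 h than at 17 h with DEX and without. These were 2 of 5 members in DEX cells, where 56% of all genes were called (27.8% higher, 28.2% lower), and 2 of 5 in control cells, where 43.5% were (22.1% higher, 21.4% lower). Their values did not overlap between the times, as in 46.2% of all genes with DEX and 43.6% without. Mef2d averaged 127 ± 8.02 CPM at 25 h and 108 ± 4.84 CPM at 17 h in DEX cells (SD, n = 4), with a log2 fold change of 0.23 ± 0.05 (adjusted p = 3.84e-04 by edgeR). In control cells it averaged 135 ± 8.18 CPM at 25 h and 113 ± 4.19 CPM at 17 h (0.25 ± 0.05, adjusted p = 3.05e-04). Gata6 averaged 7.65 ± 0.438 CPM at 25 h and 5.62 ± 0.970 CPM at 17 h with DEX (0.45 ± 0.11, adjusted p = 0.00119). Without DEX its change was 0.49 ± 0.10 (adjusted p = 4.95e-04). Gata4, at 23.0 ± 1.32 CPM at 25 h and 23.5 ± 2.89 CPM at 17 h with DEX, was called in neither treatment; in control cells it was called without replicate 1 of 25 h (0.20, adjusted p = 0.0427). Nkx2-5 was likewise called in control cells without replicate 3 of 17 h (0.38, adjusted p = 0.0359), and Mef2a in DEX cells without replicate 2 of 17 h or replicate 1 of 25 h (adjusted p = 0.0121 and 0.0150). Over all alternatives the adjusted p of these 3 ran from 0.0427 to 0.394, from 0.0359 to 0.422 and from 0.0121 to 0.363. Mef2d thus had a positive time difference in both lines and Gata4 was called with time in HL-1 alone, but the times differ between the lines and no difference between lines was tested.

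Of the other lists in AML12 cells at 17 h, 12 of 21 other cardiac factors were called with DEX (6 higher, 6 lower), where 38.4% of all genes tested were called (20.5% higher, 17.9% lower). Also called were 8 of 11 bound genes (2 higher, 6 lower), 11 of 29 MEF2 regulators (4 higher, 7 lower) and 12 of 21 upstream signals (1 higher, 11 lower). At 25 h 3 of 21 other factors were called (all lower), 5 of 11 bound genes (2 higher, 3 lower), 1 of 29 MEF2 regulators (lower) and 10 of 21 upstream signals (1 higher, 9 lower), against 11.7% of all genes (6.79% higher, 4.96% lower). Klf15, a known glucocorticoid-responsive factor that restrains MEF2, was at 41.7 ± 1.88 CPM with DEX against 18.2 ± 1.07 CPM without at 17 h (1.19 ± 0.07, adjusted p = 4.15e-13). Camk2d, a calcium-responsive kinase that acts on class IIa deacetylases, was at 145 ± 9.13 CPM with DEX against 78.9 ± 1.95 CPM without (0.87 ± 0.04, adjusted p = 7.82e-14). Notch1, a receptor of the NOTCH pathway, was the 1 upstream signal called higher at 17 h, while the 11 others called were lower. It was at 111 ± 4.19 CPM with DEX against 45.3 ± 1.52 CPM without (1.29 ± 0.06, adjusted p = 2.24e-14). Tpm1, a tropomyosin, was at 433 ± 13.6 CPM with DEX against 687 ± 11.5 CPM without (-0.67 ± 0.04, adjusted p = 3.95e-13).

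Genes that overlap the members set a limit on some values, since no source used here states whether counting used the strand. Lysmd4 lies on the strand opposite Mef2a and shares 302 exon bases with it; it had 2425 counts in the 16 HL-1 libraries, against 38402 for Mef2a, and 3158 in AML12, against 20041 for Mef2a. Within Mef2d the antisense gene 1700113A16Rik shares 531 exon bases with it. That gene had 134 counts in HL-1, against 32546 for Mef2d, and 435 in AML12, against 31661 for Mef2d. A transcript on the strand opposite Gata6, named Gata6os in the HL-1 table, overlaps it and shares 93 exon bases with it. It had 6 counts in HL-1 cells and 598 in AML12 cells, against 209 and 1908 for Gata6. Hand2os1, which overlaps Hand2, had 0 counts in HL-1 cells like Hand2 itself.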

How the data were processed

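Total RNA was sequenced from 32 libraries, 16 for each cell line. The files are counts of reads per gene as deposited by the authors. Reads were handled with FastQC 0.11.8 and STAR against mm10 (GRCm38), per the submitters' processing notes. Which program counted the reads, on which annotation and with what strand option, is not stated in any source used here. In the HL-1 table the columns of CM libraries carry the name DEX, and the labels' descriptions tie them to CM. No column was left without a sample.

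Genes were kept by edgeR's filterByExpr, and one mean per group was fitted to the 16 libraries of a line with edgeR 4.0.16 (R 4.3.3), TMM scaling and the quasi-likelihood F test. p-values were adjusted by Benjamini and Hochberg over all genes tested in the line, with calls at an adjusted p under 0.05 and 5 contrasts per line. SE is the size of the log2 fold change over the root of F. The step was tested on simulated data. CPM uses TMM-scaled totals; TPM uses GENCODE M21 exon lengths. Promoters are from RefSeq (GRCm38.p6).

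The members and the gene lists were chosen with earlier results of these data known. From each other list, called genes are named by smallest p (up to 4 for a CM contrast and 2 for others), and members are all named; 1 gene that this rule names is not reported here. Alternatives were RLE and total-count scaling, no filter, DESeq2 1.42.0, limma-voom (limma 3.58.1), the replicate number as a block, the compared libraries alone and each library left out; thinning to the lowest total and removal of the GC trend were added after seeing the data. The rule for genes most like a member applied to none, since no member was called for CM.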

Additional observations from a re-analysis of the deposited data

Results flagged for a closer look

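In 44 sets of 4 libraries (a tested member in a group), the highest or lowest library was set against its group by Dixon's test at the 95% level, and 3 libraries lay far from the others. Chance marks about 1 in 20 groups. Gata6 was at 0.188 CPM in replicate 2 of HL-1 control medium at 28 h (3 counts), below the 14 counts of each of the other 3. Nkx2-5 was at 4.63 CPM in replicate 3 of AML12 control cells at 17 h, above the other 3 libraries of that group. Mef2d was at 117 CPM in replicate 2 of HL-1 CM at 16 h, the library with the highest GC tilt of that group.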

How the results depend on the processing

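Of 1362 repeats of the 55 member tests under alternatives, 1286 kept direction and side of the threshold, 14 passed it newly, 5 lost it and 57 changed sign. The sign changes were in 17 tests, none called as reported or in the repeat, 46 of them on leaving out 1 library. Leave-one-out log2 ranges for CM at 16 h were -0.054 to 0.089 (Gata4), -0.051 to 0.0061 (Mef2a) and -0.00056 to 0.064 (Mef2d). At 28 h they were -0.077 to 0.065 (Mef2c) and -0.25 to 0.37 (Nkx2-5). For the CM effect at 28 h minus that at 16 h they were -0.030 to 0.12 (Gata4), -0.12 to 0.48 (Gata6), -0.038 to 0.055 (Mef2d) and -0.58 to 0.099 (Nkx2-5). With time they were -0.095 to 0.067 (Mef2c, CM), -0.33 to 0.094 (Nkx2-5, control medium) and -0.083 to 0.045 (Gata4, DEX). For DEX they were -0.18 to 0.039 (Nkx2-5, 17 h) and -0.0056 to 0.088 (Mef2a, 25 h), and for its difference between times -0.13 to 0.063 (Gata6), -0.061 to 0.0081 (Mef2d) and -0.16 to 0.067 (Nkx2-5). Thinned counts gave 0.022 for Mef2c (CM, 28 h), 0.024 for Mef2d (CM difference) and 0.035 for Nkx2-5 (DEX difference). For the Mef2d CM difference RLE, total counts and DESeq2 gave 0.0029, 0.0045 and 0.0028. For the DEX difference total counts gave 0.0017 (Gata6), 0.028 (Mef2d) and 0.0081 (Nkx2-5), and GC removal 0.022 (Mef2d) and 0.0023 (Nkx2-5). Of 496 repeated counts of called members, 15 differed. In HL-1 cells no alternative gave a member call for CM; with time in CM, members called lower ran from 1 to 2 over the leave-one-out fits. In AML12 cells, members called lower with DEX at 17 h ran from 0 to 2 over the leave-one-out fits, against 1 with all libraries. At 25 h they ran from 0 to 1, and were 1 (Gata6) with the compared libraries alone (-0.28, adjusted p = 0.0462) and with thinned counts (-0.33, 0.0346), against 0. For the difference of the DEX effect between the times, members called higher ran from 0 to 1 and were 1 (Mef2a) with total counts only (0.25, adjusted p = 0.0460) and without the low-count filter (0.22, 0.0348), against 0; the cause was not tested. Over all genes, calls for CM were 490 at 16 h and 497 at 28 h with the GC trend removed, against 294 and 278; at 28 h they were 179 without control replicate 1 and 170 without CM replicate 3. The interaction gave 89 with the GC trend removed and 97 without the filter, against 40.

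The labels number replicates 1 to 4 in each group but do not say that a number marks a shared culture. Deviations of same-numbered HL-1 libraries correlated at -0.12 to 0.12, with 2 of 24 pairs over 0.1. Differently numbered pairs ran from -0.23 to 0.20, with 4 of 72 over 0.1. These values do not tell whether a number marks a shared culture. With the replicate block, no member call changed; Nkx2-5 was at 0.33 for CM at 16 h and Mef2a at -0.17 for DEX at 17 h. The interaction contrasts use all libraries, so the fit on compared libraries alone gives no other value. With the longest transcript as length, levels were 68.2 TPM for Mef2a, 59.2 for Mef2d and 4.81 for Mef2c in HL-1. Depth limits Gata6 in HL-1 cells (3 to 22 counts a library) and the 4 genes near 0.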
